A study of Homo sapiens with 4 samples.

Results

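Homologous recombination and Fanconi genes are the genes whose proteins repair double-strand breaks from an intact copy of the DNA and clear crosslinks that tie the 2 strands together. The set held 34 genes, taken as the rows of the count tables whose gene name equals a name on a written list. These were 34 of 54628 genes in each table, and all 34 were among the 15161 genes with enough reads to be tested. The genes were measured by poly(A) RNA sequencing in Panc1, an established cell line from a human pancreatic ductal carcinoma. By their treatment labels, 2 libraries came from Panc1 cells given HMGB2 siRNA, a short double-stranded RNA against the chromatin protein HMGB2, and 2 came from Panc1 cells given a scramble siRNA. Nothing else distinguished the groups in the labels, and the siRNA sequences, doses and times are not given in the sources used here. The design asks which transcripts differ in level when HMGB2 is targeted.

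The labels and the files disagreed on which libraries were which. In all 4 tables the name of the count column gave the other treatment, and HMGB2 itself (chromosome 4, 173331376 to 173334358, minus strand, GRCh38) went against its labels. It had 4021 and 2746 counts under the HMGB2 siRNA label, against 346 and 319 counts under the scramble label. As CPM (counts per library total, scaled by TMM) the means were 131 ± 4.2 under the HMGB2 siRNA label and 15.5 ± 0.29 under the scramble label (SD, n = 2 each), an 8.43-fold difference with a log2 fold change of 3.07 ± 0.08 (SE) and an adjusted p of 1.54e-33 by edgeR's quasi-likelihood test with Benjamini-Hochberg adjustment. The libraries labelled as HMGB2 knockdown therefore held more HMGB2 RNA. Groups are called by their treatment labels throughout, "under" a label means in the libraries that carry it, "higher" and "lower" mean higher and lower under the HMGB2 siRNA label than under the scramble label, and every direction below reads the other way if the labels rather than the file names are wrong. No label states that the libraries are separate cultures. The p-values therefore rest on the spread between the libraries sequenced, which may be technical. Total counts were 31852391 and 20976561 under the HMGB2 siRNA label, against 21874647 and 20340695 under the scramble label.

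In homologous recombination, a broken end is recognised, trimmed back to single-stranded DNA by nucleases, coated with a recombinase with the help of BRCA2 and its partners, and paired with the sister chromatid. The Fanconi pathway acts where a crosslink stops a replication fork: a multi-protein core complex attaches ubiquitin to the FANCD2-FANCI pair, which then clamps on the DNA and brings in nucleases and recombination. Both act mainly in S and G2 phase, when a sister copy exists, and many of their genes are transcribed most in cycling cells. Loss of BRCA1, BRCA2, PALB2 or ATM is an inherited risk for pancreatic cancer.

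Of the 34 genes, 16 were higher, 1 was lower and 17 did not pass the test (edgeR, Benjamini-Hochberg adjusted p under 0.05 over all genes tested). This is 50% called, beside 30.8% of all genes tested. The share called higher was 47.1%, beside a background of 16.7%, and the share called lower was 2.94%, beside 14.1%. Their median log2 fold change was 0.19, and that of all genes tested was -0.006. Differences were small: among the 16 higher genes the median log2 fold change was 0.39 and the smallest 0.26, a 1.19-fold difference. Without the second library labelled HMGB2 siRNA 10 were higher and 0 lower, when 16.5% of all genes tested were called, and without the first 12 were higher and 1 lower, when 15.1% were called. All 17 called genes had groups that did not overlap, as did 6 of the 17 others. Non-overlap was common in these libraries, at 63.7% of all genes tested. In bulk RNA, a change in the share of cells that express a gene and a change in RNA per cell cannot be told apart.

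The split depended in part on scaling. Among all called genes 54.3% were higher with TMM, 42.0% with upper-quartile scaling and 43.3% with total counts. Among these repair genes, upper-quartile scaling left 13 higher and 4 lower, and total-count scaling 13 higher and 3 lower. Both settings moved the median of all genes tested, to -0.057 with upper-quartile scaling and -0.053 with total counts. RAD51D, XRCC2 and RMI2 were no longer called with either, while FANCF and RAD50 were called lower with both and PALB2 with upper-quartile scaling.

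**Figure D1:**
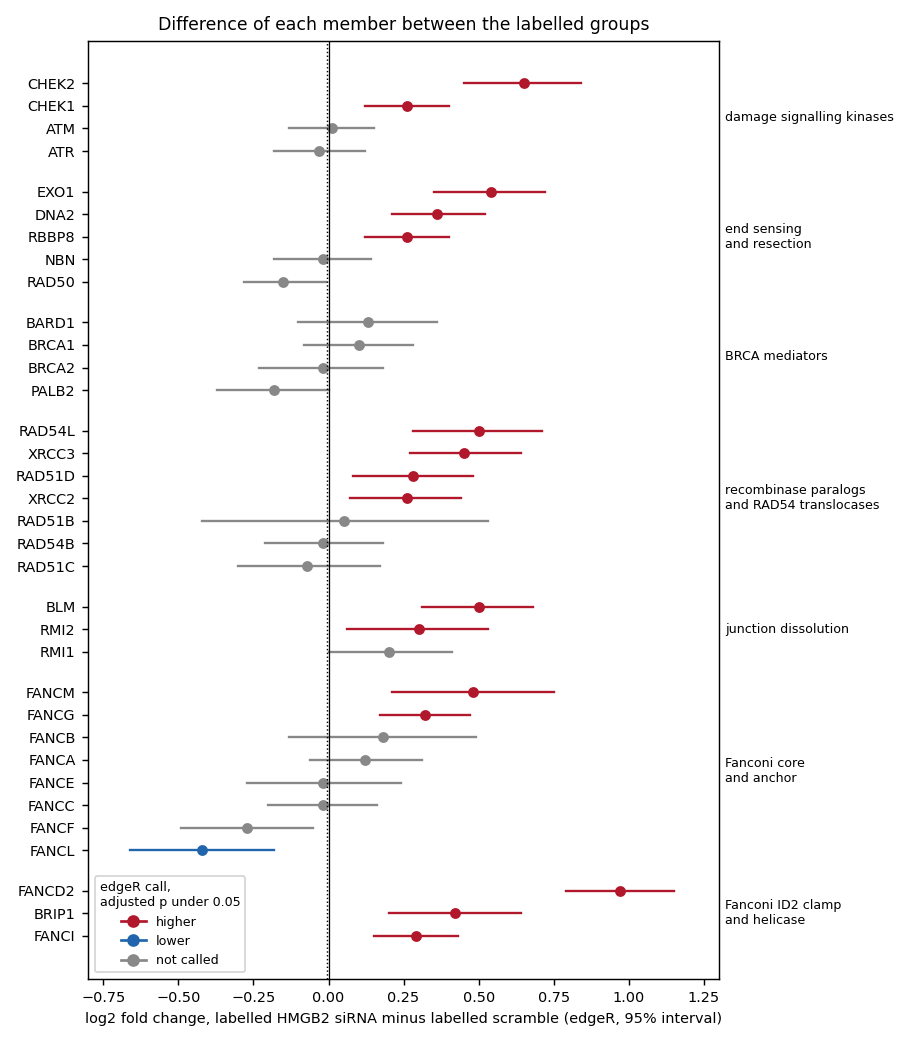
Log2 fold change of each of the 34 genes, labelled HMGB2 siRNA minus labelled scramble, with its 95% interval from edgeR (not adjusted for the number of genes). Genes are grouped by role, colours give the call at an adjusted p under 0.05, and the dotted line is the median of all genes tested at -0.006. FANCD2 lies farthest to the right at 0.97 and FANCL farthest to the left at -0.42. HMGB2, with 4021 and 2746 counts under the HMGB2 siRNA label and 346 and 319 under the scramble label, is not drawn.

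Both genes of the pair that the Fanconi core complex modifies and the helicase gene BRIP1 were higher. FANCD2 (chromosome 3, 10026437 to 10101932, plus strand), the subunit whose ubiquitination marks an active pathway, differed most of the 34 genes. It was measured at 42.4 and 41.6 CPM under the HMGB2 siRNA label, against 21.7 and 21.3 CPM under the scramble label. Both libraries of each group lay close together and far from the other group. The means were 42 ± 0.57 CPM under the HMGB2 siRNA label and 21.5 ± 0.25 CPM under the scramble label (SD, n = 2 each), a 1.95-fold difference with a log2 fold change of 0.97 ± 0.09 (SE, 95% interval 0.79 to 1.15, edgeR adjusted p 1.46e-12). Of all genes tested, 2.01% had a log2 fold change at least as high.

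FANCI (chromosome 15, 89243973 to 89317259, plus strand), the partner in the clamp, was higher by much less. Its values were 118 and 123 CPM under the HMGB2 siRNA label, against 106 and 90.7 CPM under the scramble label, where the second library was the lowest. The means were 121 ± 3.7 CPM under the HMGB2 siRNA label and 98.5 ± 11 CPM under the scramble label, and the log2 fold change was 0.29 ± 0.07 (95% interval 0.15 to 0.43, edgeR adjusted p 0.00106). Per kilobase of counted exon, the level of FANCI was 3.37 and 3.59 times that of FANCD2 under the HMGB2 siRNA label, against 5.94 and 5.15 times under the scramble label. The RNAs of these 2 partners, which act as a pair, thus stood closer in level under the HMGB2 siRNA label, a comparison made after the values were seen and not tested. FANCI shares 431 bases or 8.79% of its exons with POLG on the opposite strand, which was lower (log2 fold change -0.46 ± 0.07, edgeR adjusted p 3.42e-07), at 81.8 and 84 CPM under the HMGB2 siRNA label against 110 and 118 CPM under the scramble label.

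BRIP1 (chromosome 17, 61679139 to 61864120, minus strand), a helicase that binds BRCA1, had 20.1 and 25.6 CPM under the HMGB2 siRNA label, against 16.2 and 17.7 CPM under the scramble label. The groups did not overlap, though the SD was 3.9 CPM under the HMGB2 siRNA label, wider than the 1.1 CPM under the scramble label. Its log2 fold change was 0.42 ± 0.11 (95% interval 0.20 to 0.64, edgeR adjusted p 0.00246). BRIP1 and FANCI were not called once the second library labelled HMGB2 siRNA was left out.

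The core complex carries out the ubiquitination. Of the 8 FANC-named genes counted here, with the anchor FANCM, 2 were higher, 1 was lower and 5 were not called. This is 37.5% called, near the 30.8% of all genes tested. The lower gene was the catalytic subunit of the complex. FANCL (chromosome 2, 58159243 to 58241681, minus strand), the ubiquitin ligase of the complex, was measured at 11.7 and 10.9 CPM under the HMGB2 siRNA label, against 14.7 and 15.7 CPM under the scramble label. Counts ranged from 223 to 369 per library, and the groups did not overlap. Per kilobase of counted exon its mean level was 4.5 CPM, beside a median of 4.7 CPM for all genes tested. The log2 fold change was -0.42 ± 0.12 (95% interval -0.66 to -0.18, edgeR adjusted p 0.00514), which is 0.747-fold. Most of the counted FANCL sequence, 1600 bases or 54.3% of its exons, is shared with VRK2 on the opposite strand, and the sources used here do not give the strand setting of the counting. VRK2 had 45.9 and 44.1 CPM under the HMGB2 siRNA label, against 45.3 and 42.3 CPM under the scramble label, and was not called (log2 fold change 0.04 ± 0.08, edgeR adjusted p 0.751). FANCL was not called without the second library labelled HMGB2 siRNA.

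FANCM (chromosome 14, 45135930 to 45200890, plus strand), the translocase that anchors the core complex to stalled forks, differed in the opposite direction. It had 12.2 and 11.4 CPM under the HMGB2 siRNA label, against 7.9 and 9.02 CPM under the scramble label, so that every library of the first pair exceeded every library of the second. The log2 fold change was 0.48 ± 0.14 (95% interval 0.21 to 0.75, edgeR adjusted p 0.00493), and it was not called without the first library labelled HMGB2 siRNA. FANCG, which bridges FANCA to the rest of the complex, was the other higher gene at 0.32 ± 0.08, with means of 61.7 ± 1.3 CPM under the HMGB2 siRNA label and 49.4 ± 0.14 CPM under the scramble label (edgeR adjusted p 0.000745).

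FANCA (chromosome 16, 89737549 to 89816647, minus strand), the most often mutated gene in Fanconi anaemia, had 29.4 and 31.2 CPM under the HMGB2 siRNA label, against 25.8 and 29.9 CPM under the scramble label. The groups overlapped, and the log2 fold change of 0.12 ± 0.09 did not pass (95% interval -0.06 to 0.31, edgeR adjusted p 0.347). FANCA shares 1417 bases or 22.9% of its exons with ZNF276 on the opposite strand, which was itself lower (log2 fold change -0.39 ± 0.10, edgeR adjusted p 0.00275) but not called without the second library labelled HMGB2 siRNA (0.104). FANCF, an adaptor of the complex, lay just outside the threshold with a log2 fold change of -0.27 ± 0.11 and an edgeR adjusted p of 0.0506. Its libraries did not overlap, at 14.8 and 15.4 CPM with the label HMGB2 siRNA against 18.7 and 17.8 CPM with the label scramble, and it was called lower in 6 of 13 alternative settings. FANCB, FANCC and FANCE, the remaining FANC-named subunits of the complex, had log2 fold changes of 0.18, -0.02 and -0.02 and were not called.

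**Figure D2:**
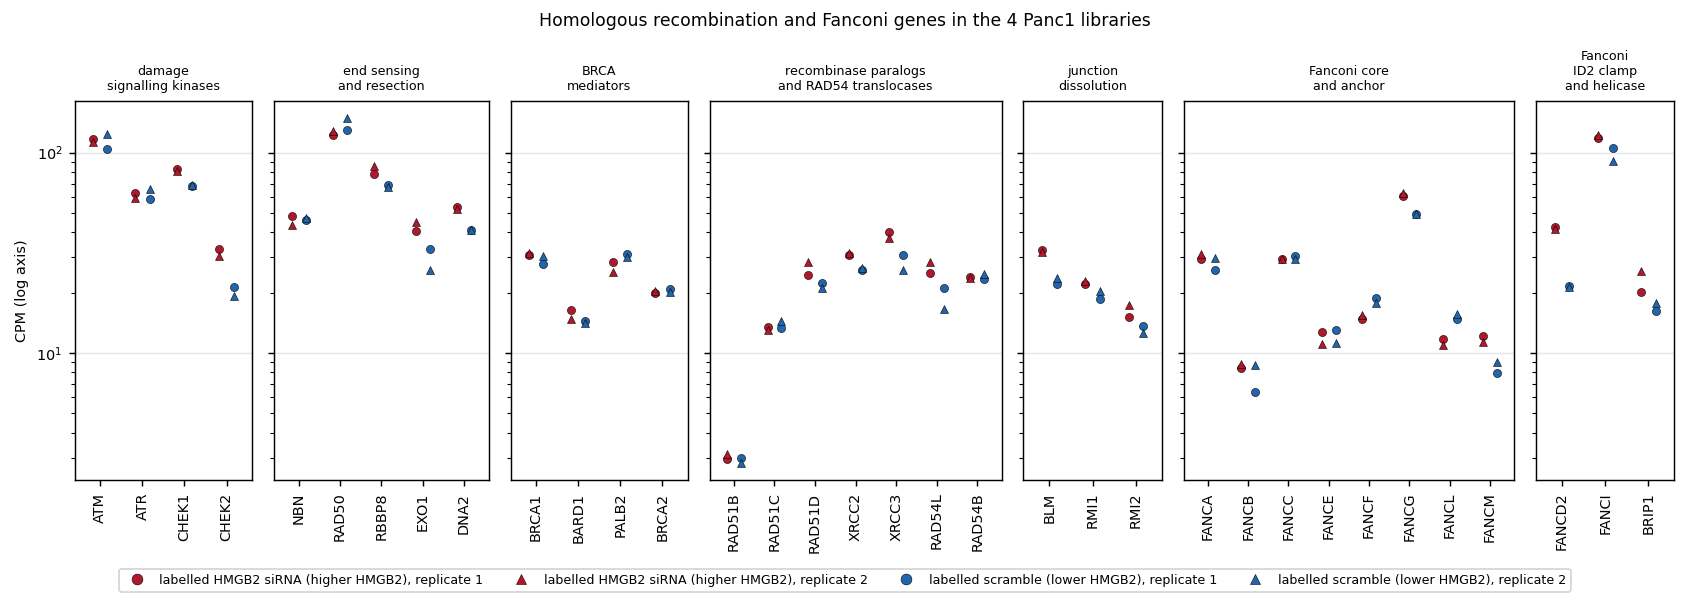
CPM of each of the 34 genes in every library on a log axis, with the 2 libraries labelled HMGB2 siRNA in red and the 2 labelled scramble in blue. FANCD2 and CHEK2 show the widest gaps between the groups, while the points of ATM, ATR, BRCA2 and FANCC lie close together. HMGB2, not drawn, had 128 and 134 CPM with the label HMGB2 siRNA and 15.7 and 15.3 CPM with the label scramble.

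Of the 4 kinases that carry the damage signal, both effector kinases were higher and neither of the kinases above them was called. CHEK2 (chromosome 22, 28687743 to 28741866, minus strand), the checkpoint kinase that ATM activates after breaks, had 33 and 30.5 CPM under the HMGB2 siRNA label, against 21.3 and 19.3 CPM under the scramble label. This was the largest difference after FANCD2. Its means were 31.8 ± 1.8 CPM under the HMGB2 siRNA label and 20.3 ± 1.5 CPM under the scramble label (SD, n = 2 each), a 1.57-fold difference (log2 fold change 0.65 ± 0.10, 95% interval 0.45 to 0.84, edgeR adjusted p 4.34e-07). CHEK1, the effector of ATR at stalled forks, was higher by a log2 fold change of 0.26 ± 0.07, at 82 ± 1.6 CPM under the HMGB2 siRNA label and 68.5 ± 0.32 CPM under the scramble label (edgeR adjusted p 0.00317); it was not called without the first library labelled HMGB2 siRNA. HMGB2 counts beside these directions were 4021 and 2746 with the label HMGB2 siRNA and 346 and 319 with the label scramble.

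ATM (chromosome 11, 108222484 to 108369102, plus strand), the kinase activated by double-strand breaks, had 117 and 113 CPM under the HMGB2 siRNA label, against 104 and 124 CPM under the scramble label. Both values of the first group fell between those of the second. The log2 fold change was 0.01 ± 0.07 (95% interval -0.13 to 0.15, edgeR adjusted p 0.954). ATR (chromosome 3, 142449235 to 142578793, minus strand), the kinase activated by single-stranded DNA at forks, had 62.7 and 59.6 CPM under the HMGB2 siRNA label, against 58.9 and 66 CPM under the scramble label. Here too the groups overlapped (log2 fold change -0.03 ± 0.08, 95% interval -0.18 to 0.12, edgeR adjusted p 0.821). For both kinases the intervals leave out differences as large as that of CHEK2.

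Among the 5 genes that sense and trim broken ends, the 3 that trim were higher and the 2 of the sensing complex were not called. EXO1 (chromosome 1, 241847967 to 241889939, plus strand), an exonuclease of long-range resection, had 40.6 and 45.1 CPM under the HMGB2 siRNA label, against 33 and 25.8 CPM under the scramble label. The groups did not overlap, and the libraries of each pair were well apart, with an SD of 3.2 CPM under the HMGB2 siRNA label and 5.1 CPM under the scramble label. The log2 fold change was 0.54 ± 0.09 (95% interval 0.35 to 0.72, edgeR adjusted p 7.81e-06). DNA2, the nuclease and helicase that works in parallel to EXO1, was higher by 0.36 ± 0.08 (edgeR adjusted p 0.000251), with means of 53 ± 0.64 CPM under the HMGB2 siRNA label and 41.2 ± 0.011 CPM under the scramble label. RBBP8, also called CtIP, which starts resection, was higher by 0.26 ± 0.07 (edgeR adjusted p 0.00384) and was not called without the second library labelled HMGB2 siRNA.

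RAD50 and NBN form the sensing complex with MRE11. RAD50 had 123 and 129 CPM under the HMGB2 siRNA label, against 130 and 149 CPM under the scramble label, with a log2 fold change of -0.15 ± 0.07 (edgeR adjusted p 0.103). NBN was at -0.02 ± 0.08 (edgeR adjusted p 0.878), and 43.2% of its exon sequence is shared with OSGIN2 on the opposite strand. MRE11, the nuclease of the same complex and not among the 34 genes, was higher: 56.1 and 57.1 CPM under the HMGB2 siRNA label, against 42.5 and 42.6 CPM under the scramble label (log2 fold change 0.41 ± 0.08, edgeR adjusted p 3.23e-05). The 3 subunits of this complex therefore did not share a call.

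None of the 4 BRCA mediators, which load the recombinase onto trimmed DNA, was called, beside 30.8% called of all genes tested. Summed over the 4 genes, the libraries labelled HMGB2 siRNA had 95.7 and 92.3 CPM and those labelled scramble 94.6 and 94.9 CPM, which overlap. The sum joins positive log2 fold changes, of BRCA1 and BARD1, with negative ones, of PALB2 and BRCA2. Gene by gene, the groups did not overlap in 3 of the 4, beside 63.7% of all genes tested. BRCA1 (chromosome 17, 43044295 to 43125364, minus strand), a ubiquitin ligase that promotes resection and loading, had 31 and 31.7 CPM under the HMGB2 siRNA label, against 27.9 and 30.6 CPM under the scramble label. The gap between the means was smaller than the distance between the scramble libraries (log2 fold change 0.10 ± 0.09, 95% interval -0.08 to 0.28, edgeR adjusted p 0.446). BARD1, its obligate partner, was at 0.13 ± 0.11 (edgeR adjusted p 0.433).

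BRCA2 (chromosome 13, 32315508 to 32400268, plus strand), which hands the recombinase to the DNA, had 19.9 and 20.4 CPM under the HMGB2 siRNA label, against 20.8 and 20.2 CPM under the scramble label. All 4 libraries lay within about the same narrow band (log2 fold change -0.02 ± 0.10, 95% interval -0.23 to 0.18, edgeR adjusted p 0.889). PALB2 (chromosome 16, 23603162 to 23641337, minus strand), the bridge between BRCA1 and BRCA2, had 28.3 and 25.5 CPM under the HMGB2 siRNA label, against 31.3 and 30 CPM under the scramble label. Its groups did not overlap, but the log2 fold change of -0.18 ± 0.09 did not pass (95% interval -0.37 to 0.00, edgeR adjusted p 0.128). A p above the threshold does not show that these 4 genes were equal. Their intervals reach at most 0.36 upward, at BARD1, and -0.37 downward, at PALB2.

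**Figure D3:**
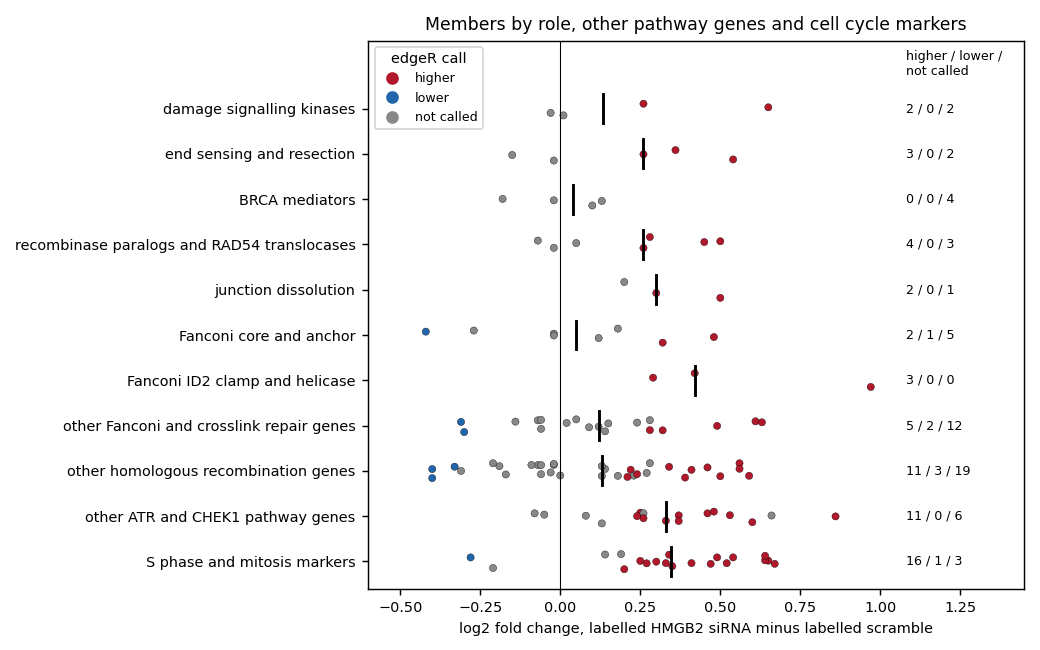
Log2 fold change of each tested gene (points, coloured by edgeR call) by role, for the 34 genes in the upper 7 rows, for other genes of the same pathways in the next 3 and for S phase and mitosis markers in the last. Black bars are medians, and the numbers on the right count genes higher, lower and not called under the HMGB2 siRNA label, where HMGB2 had 4021 and 2746 counts against 346 and 319 under the scramble label. The BRCA mediators show 0 calls of 4, and 16 of the 20 cell cycle markers are higher. Of all genes tested 30.8% were called and 16.7% were higher.

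Among the 7 recombinase paralogs and RAD54 translocases, 4 were higher and 3 were not called. RAD54L (chromosome 1, 46247688 to 46278477, plus strand), a motor that helps the recombinase filament find and open its partner DNA, had 25 and 28.4 CPM under the HMGB2 siRNA label, against 21 and 16.6 CPM under the scramble label. The groups did not overlap, with an SD of 2.4 CPM under the HMGB2 siRNA label and 3.1 CPM under the scramble label. The log2 fold change was 0.50 ± 0.11 (95% interval 0.28 to 0.71, edgeR adjusted p 0.000213). RAD54L shares 570 bases or 18.1% of its exons with LRRC41 on the opposite strand, which was lower at 98.9 and 98.3 CPM under the HMGB2 siRNA label against 115 and 113 CPM under the scramble label (log2 fold change -0.20 ± 0.07, edgeR adjusted p 0.0152). LRRC41 was not called without either library labelled HMGB2 siRNA (edgeR adjusted p 0.203 without the first and 0.221 without the second) or with no filter on low counts (0.0582). RAD54B, its relative, was at -0.02 ± 0.10 and was not called.

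XRCC3 (chromosome 14, 103697611 to 103715486, minus strand), a recombinase paralog that binds RAD51C, had 40.1 and 37.3 CPM under the HMGB2 siRNA label, against 30.7 and 25.9 CPM under the scramble label. Every library of the first pair exceeded both of the second (log2 fold change 0.45 ± 0.09, 95% interval 0.27 to 0.64, edgeR adjusted p 8.14e-05). RAD51D and XRCC2, which sit in 1 complex with RAD51B and RAD51C, were higher by 0.28 ± 0.10 and 0.26 ± 0.09, near the threshold (edgeR adjusted p 0.026 and 0.0274). DESeq2 called neither, RAD51D was not called without the second library of either group, and XRCC2 was not called without either library labelled HMGB2 siRNA. RAD51C, the paralog common to both complexes, was at -0.07 ± 0.12 and was not called. RAD51B, at 2.96 and 3.12 CPM under the HMGB2 siRNA label and 3 and 2.83 CPM under the scramble label, was the lowest of the 34 genes, and its interval of -0.42 to 0.53 was the widest of those not called.

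BLM, RMI1 and RMI2 belong to the complex that dissolves the joined DNA molecules left by recombination. BLM (chromosome 15, 90717346 to 90816166, plus strand), its helicase, had 32.6 and 31.8 CPM under the HMGB2 siRNA label, against 22 and 23.7 CPM under the scramble label. The pairs were tight and well apart (log2 fold change 0.50 ± 0.09, 95% interval 0.31 to 0.68, edgeR adjusted p 3.25e-05). RMI2 and RMI1, its structural partners, were at 0.30 ± 0.12, called near the threshold (edgeR adjusted p 0.0467), and at 0.20 ± 0.10, not called (edgeR adjusted p 0.133). The call of RMI2 held in 3 of 13 alternative settings.

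The start regions of 4 of these genes are shown because they carry the largest differences: FANCD2, CHEK2 and EXO1 among the higher genes, and FANCL, the lower one. Each run covers 300 bases, 250 before and 50 after the RefSeq transcript start on GRCh38.p14, read 5′ to 3′ on the strand of the gene; this start need not be the one most used in Panc1 cells. The RefSeq start used lies inside the counted gene given above for EXO1, CHEK2 and FANCL, and equals its start for FANCD2. Capitals mark matches, on either strand, to words that E2F proteins can bind at cell cycle genes or to other elements of such genes. The E2F-type words searched were the word TTCCCGC, the word TTCGCGC, the word TTGCCGC and the word TTGGCGC. The CHR element was searched as the word TTTGAA or the word TTCGAA, and the CCAAT box by the letters of its name. The FANCD2 region is chr3:10026187-10026486 (plus strand), the CHEK2 region chr22:28741771-28742070 (minus), the EXO1 region chr1:241847954-241848253 (plus) and the FANCL region chr2:58241276-58241575 (minus).
FANCD2: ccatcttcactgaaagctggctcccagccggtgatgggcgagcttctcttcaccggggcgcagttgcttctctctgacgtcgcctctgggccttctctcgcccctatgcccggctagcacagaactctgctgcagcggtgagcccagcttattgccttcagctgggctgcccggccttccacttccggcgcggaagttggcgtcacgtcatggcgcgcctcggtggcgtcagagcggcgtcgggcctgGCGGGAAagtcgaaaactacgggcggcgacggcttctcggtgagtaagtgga
CHEK2: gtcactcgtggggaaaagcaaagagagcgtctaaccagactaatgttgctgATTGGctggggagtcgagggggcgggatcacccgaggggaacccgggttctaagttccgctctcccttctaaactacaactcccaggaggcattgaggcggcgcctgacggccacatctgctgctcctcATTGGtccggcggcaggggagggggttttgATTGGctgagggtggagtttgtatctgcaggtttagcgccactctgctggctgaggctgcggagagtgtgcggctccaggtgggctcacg
EXO1: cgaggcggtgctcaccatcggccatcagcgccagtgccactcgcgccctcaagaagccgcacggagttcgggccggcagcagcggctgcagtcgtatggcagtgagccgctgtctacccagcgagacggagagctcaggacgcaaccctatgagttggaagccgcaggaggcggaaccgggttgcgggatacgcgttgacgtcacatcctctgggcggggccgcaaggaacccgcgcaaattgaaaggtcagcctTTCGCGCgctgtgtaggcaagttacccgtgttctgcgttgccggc
FANCL: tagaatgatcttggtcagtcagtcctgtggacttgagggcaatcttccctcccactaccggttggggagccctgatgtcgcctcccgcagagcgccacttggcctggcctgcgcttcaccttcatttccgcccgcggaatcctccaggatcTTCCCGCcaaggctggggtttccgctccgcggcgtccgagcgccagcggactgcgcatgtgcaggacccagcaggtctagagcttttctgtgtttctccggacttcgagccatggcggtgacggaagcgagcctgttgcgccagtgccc
FANCD2 held 1 E2F-type word, read on the strand opposite the gene and spanning the start used. EXO1 held 1 just after the start used and FANCL 1 before it, and both words lie inside the counted genes. CHEK2 held no E2F-type word in this window and 3 CCAAT boxes on the strand opposite the gene.

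A window was found for 29 of the 34 genes. An E2F-type word stood in 15 of the 29 (51.7%), against 13.1% of all 27305 promoter windows of the same length. By call, 9 of 13 higher genes held one (69.2%), as did the 1 lower gene and 5 of 15 genes not called (33.3%). A CCAAT box stood in 12 of 29 (41.4%), against 35.7% of all windows, and a CHR element in 3 of 29 (10.3%), against 16.6%. All windows together include genes not tested here and were not matched to the repair genes in base composition or expression. The shares are therefore not like for like. These are matches of letters, counted without a test, and do not show that a factor binds.

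Levels per kilobase of counted exon, averaged over the 4 libraries, ranged 71.5-fold among the 34 genes. Their median was 5.46 CPM per kb, beside 4.7 for all genes tested. The highest were the clamp subunit FANCI at 22.4, the core subunit FANCG at 21.7, RBBP8 at 18.6, RAD50 at 16.1 and CHEK1 at 14.6 CPM per kb. The lowest were BRCA2 at 1.7, BRIP1 at 1.66, FANCM at 1.3, FANCB at 0.846 and RAD51B at 0.313 CPM per kb. FANCD2, at 5.35, and BRCA1, at 4.19, stood in the middle. RAD54B shares 63.7% of its exons with FSBP on the same strand, which had 0 CPM in every library. How reads over shared exons were counted is not given. The order therefore depends on the exon lengths listed and on the counting, and need not be that of transcript abundance. Most neighbours in this order could not be separated: all 4 libraries of the upper gene exceeded all 4 of the lower gene in 7 of 33 neighbouring pairs. Depth limited few of these genes, since 31 of 34 exceeded 10 CPM in every library and the lowest count was 59, of RAD51B in the second library labelled scramble.

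**Figure D4:**
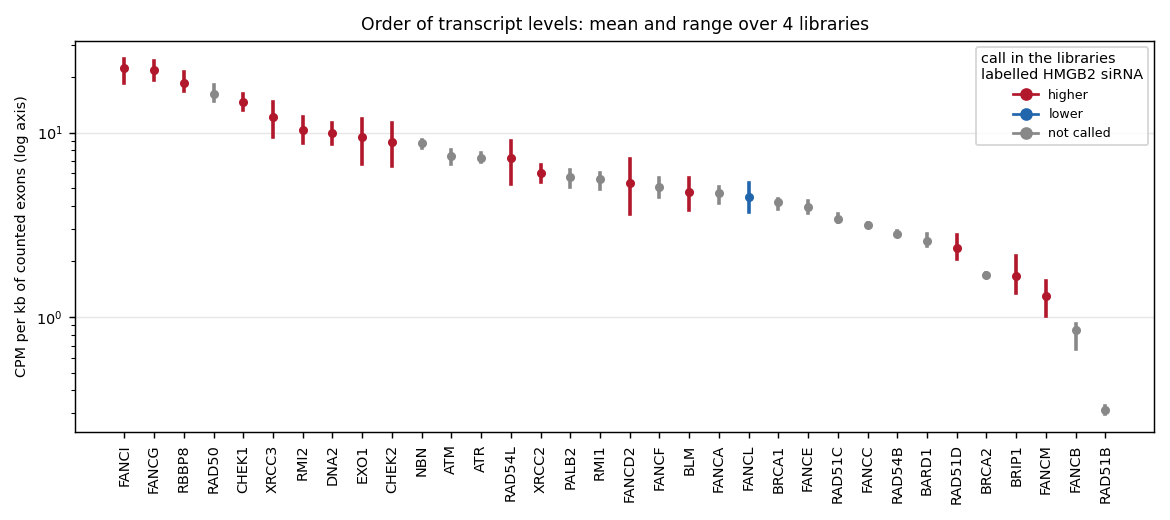
Level of each of the 34 genes in CPM per kilobase of counted exon on a log axis, ordered from highest to lowest mean over the 4 libraries. Points are these means, lines run from the lowest to the highest library, and colours give the call. FANCI at 22.4 and RAD51B at 0.313 CPM per kb are the ends of the order, and neighbouring genes mostly overlap.

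Some repair genes start within 1000 bases of a gene on the opposite strand. Of 14 with such a partner, 9 had a partner with enough reads, and of these partners 0 were higher, 1 was lower and 8 were not called, beside 30.8% called of all genes tested. The repair gene was called in 3 of these 9 pairs (FANCD2, CHEK2 and XRCC3), and in 0 of the 3 was the partner called in the same direction. CIDECP1, whose start lies 301 bases from that of FANCD2, had 10.1 and 9.84 CPM under the HMGB2 siRNA label, against 11.5 and 9.02 CPM under the scramble label (log2 fold change -0.05 ± 0.14, edgeR adjusted p 0.844). HSCB, 126 bases from CHEK2, was at -0.16 ± 0.14 (edgeR adjusted p 0.416). ZFYVE21, 324 bases from XRCC3, was lower at -0.30 ± 0.09 (edgeR adjusted p 0.0101) where XRCC3 was higher. ZFYVE21 was not called with DESeq2 (adjusted p 0.0512) or without either library labelled HMGB2 siRNA (edgeR adjusted p 0.27 without the first and 0.0523 without the second). Partners and overlapping genes were chosen by position, after the values of the repair genes were known. In all, 19 of the 34 genes share some exonic bases with another counted gene, 7 of them over 10%. The pseudogenes named after BRCA1, FANCD2, CHEK2 and RBBP8 had at most 17 counts in any library.

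Other genes of the same pathways, from a written list of 71 of which 69 were tested, were counted in the same way. Of the 69, 27 were higher, 5 were lower and 37 were not called, which is 46.4% called beside 30.8% of all genes tested, with a median log2 fold change of 0.18. Without the first library labelled HMGB2 siRNA 18 were called in either direction, against 32. HMGB2 had 4021 and 2746 counts with the label HMGB2 siRNA against 346 and 319 with the label scramble, as for the 34 genes. Among 17 tested genes of the ATR and CHEK1 pathway 11 were higher and 0 lower (median 0.33). WEE1, the kinase that holds CDK1 inactive, had 106 and 106 CPM under the HMGB2 siRNA label, against 70.8 and 76.4 CPM under the scramble label (log2 fold change 0.53 ± 0.07, edgeR adjusted p 2.53e-08). The phosphatases that undo this were higher too. CDC25C had 27.2 and 29.4 CPM under the HMGB2 siRNA label, against 17.8 and 13.2 CPM under the scramble label (0.86 ± 0.11, edgeR adjusted p 1.16e-08), and CDC25B had 230 and 233 CPM under the HMGB2 siRNA label, against 154 and 150 CPM under the scramble label (0.60 ± 0.06, edgeR adjusted p 9.92e-11). H2AX, the damage-marking histone, had 235 and 244 CPM under the HMGB2 siRNA label, against 184 and 159 CPM under the scramble label (0.48 ± 0.07, edgeR adjusted p 1.41e-07). The groups of these 4 genes, named for the smallest p of their list, did not overlap, as in 63.7% of all genes tested.

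Among 33 other homologous recombination genes 11 were higher, 3 lower and 19 not called (median 0.13). This is 42.4% called, beside 30.8% of all genes tested. RPA1, the large subunit of the protein that coats single-stranded DNA, had 213 and 208 CPM under the HMGB2 siRNA label, against 143 and 138 CPM under the scramble label (log2 fold change 0.59 ± 0.06, edgeR adjusted p 2.76e-10). MCM8, a helicase subunit, had 73.5 and 75.9 CPM under the HMGB2 siRNA label, against 51.4 and 49.8 CPM under the scramble label (0.56 ± 0.07, edgeR adjusted p 2.34e-08). FIGNL1, which disassembles recombinase filaments, had 54.2 and 55 CPM under the HMGB2 siRNA label, against 40.6 and 42.7 CPM under the scramble label (0.39 ± 0.08, edgeR adjusted p 8.02e-05). The groups of MCM8 and FIGNL1, named for their small p, did not overlap, as in 63.7% of all genes tested. MCM9, the partner of MCM8, was lower at -0.40 (edgeR adjusted p 0.00227), as were SPIDR at -0.40 (0.000117) and the helicase WRN at -0.33 (0.0431), all 3 named after their values were seen. WRN was not called when any 1 of the 4 libraries was left out, and MCM9 not without the second labelled HMGB2 siRNA.

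Of 19 tested genes of crosslink repair 5 were higher, 2 lower and 12 not called (median 0.12). This is 36.8% called, near the 30.8% of all genes tested. ATAD5, which unloads the sliding clamp PCNA, had 20.2 and 20.4 CPM under the HMGB2 siRNA label, against 12.9 and 13.4 CPM under the scramble label (0.63 ± 0.11, edgeR adjusted p 1.04e-05). EME1, a nuclease subunit, had 17.2 and 16.5 CPM under the HMGB2 siRNA label, against 11.4 and 10.7 CPM under the scramble label (0.61 ± 0.12, edgeR adjusted p 5.35e-05). In both genes, named for their small p, every library labelled HMGB2 siRNA exceeded both labelled scramble. Of all genes tested, 63.7% had groups that did not overlap. RFWD3, a ubiquitin ligase, had 87.2 and 85.2 CPM under the HMGB2 siRNA label, against 63.2 and 59.8 CPM under the scramble label (0.49 ± 0.07, edgeR adjusted p 2.77e-07). FAAP100, a core complex subunit outside the 34 genes, had 245 and 241 CPM under the HMGB2 siRNA label, against 212 and 188 CPM under the scramble label (0.28 ± 0.07, edgeR adjusted p 0.000718), and was not called without the first library labelled HMGB2 siRNA (0.051). FAAP24, the partner of FANCM and also outside the 34 genes, was lower at -0.31 (edgeR adjusted p 0.01) and the nuclease subunit ERCC1 at -0.30 (0.00107), also named after their values were seen. FAAP24 was not called with DESeq2, without either library labelled HMGB2 siRNA or without the second labelled scramble, and ERCC1 not without the first labelled HMGB2 siRNA.

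Most markers of cycling cells were also higher. Of 20 markers of S phase and mitosis 16 were higher, 1 was lower and 3 were not called. Their median log2 fold change was 0.34. This is 85% called, where of all genes tested 30.8% were called and 16.7% were higher. The lower one was MCM6 (log2 fold change -0.28, edgeR adjusted p 0.000933). It had 106 and 103 CPM under the HMGB2 siRNA label, against 125 and 128 CPM under the scramble label. RRM2, a subunit of the enzyme that makes deoxyribonucleotides, had 406 and 396 CPM under the HMGB2 siRNA label, against 273 and 231 CPM under the scramble label (log2 fold change 0.67, edgeR adjusted p 2.84e-11). CDK1, the mitotic kinase, had 173 and 177 CPM under the HMGB2 siRNA label, against 117 and 107 CPM under the scramble label (0.64, edgeR adjusted p 4.16e-11). Within the groups the second scramble library was the lowest in RRM2 and CDK1. It lay below the first scramble library in 10 of the 16 higher repair genes. The part of these markers in the differences of the repair genes was not tested. Epithelial markers were present, and 4 of 6 were higher, where 16.7% of all genes tested were higher. CDH1 had 19.6 and 20.5 CPM under the HMGB2 siRNA label, against 8.9 and 8.4 CPM under the scramble label. Its log2 fold change of 1.21 (edgeR adjusted p 1.06e-11) exceeded that of any of the 34 genes. KRT19 had 722 and 691 CPM under the HMGB2 siRNA label, against 481 and 398 CPM under the scramble label. Of 10 markers of blood, vessel, fibroblast and liver cells 8 were at or near 0. CD68, listed for blood cells, was clearly present and was not called. It had 104 and 109 CPM under the HMGB2 siRNA label, against 121 and 98.7 CPM under the scramble label. PDGFRB was higher at very low levels, 0.827 and 1.07 CPM under the HMGB2 siRNA label against 0.318 and 0.192 CPM under the scramble label. The call of PDGFRB was lost without the first or the second library labelled HMGB2 siRNA and without the second labelled scramble (edgeR adjusted p 0.0578, 0.139 and 0.0795).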

How the data were processed

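Poly(A) libraries were built by a sequencing company from RNA isolated with TRIzol and a column kit, per the labels' protocols. STAR, SAMtools 1.9, featureCounts of Subread 1.6.3 and DESeq2, with the human build hg38 (GRCh38), are named per the submitters' processing notes. Per the file headers, the authors deposited 1 table per library of raw read counts, each summed over the exons listed for the gene. The deposited exon length column was used for levels per kilobase. How the counting treated strand, multimapping reads and overlapping genes is not given in the sources used here.

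Tables were assigned to libraries as recorded in the deposit and to groups by the treatment label. Genes passing the default filterByExpr of edgeR 4.0.16 (smallest count 10, smallest total 15) were scaled by TMM and tested with glmQLFit and glmQLFTest in R 4.3.3, with group as the only term. Benjamini-Hochberg adjustment ran over all 15161 genes, and an adjusted p under 0.05 was called. SEs were the fold change divided by the root of the F statistic. The common biological coefficient of variation was 0.0507. An exact two-sided permutation test of 2 against 2 libraries reaches 0.333 at the lowest, so each call rests on spread estimated across genes. Full statistics were given for called genes of the set with a log2 fold change of at least 0.40 in size, and for BRCA1, BRCA2, PALB2, FANCA, FANCI, ATM and ATR. Of each other pathway list, up to 4 genes with the smallest p were named. The genes, lists and rules were chosen with earlier results of these data known. The procedure was tested on simulated data. Alternatives were 3 other scalings, 2 other filters, DESeq2 1.42.0, limma-voom (limma 3.58.1), a replicate block, thinned counts and leaving out each library. Promoter windows came from RefSeq (GRCh38.p14). Scripts used Python 3.11.15 with pandas 2.3.3, NumPy 2.4.6 and matplotlib 3.10.9.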

Additional observations from a re-analysis of the deposited data

How the results depend on the processing

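Of the 17 called genes, 8 were called in all 13 alternatives (FANCD2, CHEK2, EXO1, BLM, RAD54L, XRCC3, DNA2 and FANCG), and no called gene changed sign in any. The number called lower, 1 in the reported test, was 2 with RLE scaling, with a minimum mean of 1 CPM and with thinned counts, 3 with total counts and 4 with upper-quartile scaling. The number called higher was 13 with both of these last scalings and with DESeq2. The median log2 fold change was 0.14 with upper-quartile and with total-count scaling. With the replicate block 15 genes were higher and 1 lower with a median of 0.20, and RMI2 was not called. Same-numbered libraries did not deviate together (Pearson r -0.014 over 15161 genes). With 2 libraries per group, this cannot exclude that equal numbers mark a shared culture or batch. Leaving out 1 library, with the lone one assumed to vary like the other group, gave 10 to 16 genes higher, 0 to 2 lower and 18 to 37 other pathway genes called, against 32 in the reported test. The low of 10 came without the second library labelled HMGB2 siRNA, where 22 other pathway genes were called, and the low of 18 without the first. Among genes that were not called, ATM read -0.04 with upper-quartile and total-count scaling and -0.00 with thinned counts, VRK2 -0.01 with both scalings, and RAD54B and FANCE 0.00 with no filter. With 1 library left out, the log2 fold change spanned -0.10 to 0.14 for ATM, -0.06 to 0.04 for RAD54B, -0.12 to 0.11 for FANCE, -0.10 to 0.06 for NBN, -0.10 to 0.06 for ATR, -0.05 to 0.01 for BRCA2, -0.02 to 0.42 for FANCB, -0.04 to 0.00 for FANCC, -0.18 to 0.12 for CD68, -0.12 to 0.00 for RAD51C, -0.21 to 0.15 for CIDECP1 and -0.01 to 0.10 for VRK2. The causes of these changes were not tested.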
